A study of Canis lupus familiaris with 6 samples.

Results

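The 10 genes described here encode proteins of oxidized base excision repair and were chosen by their symbols in the gene table: the glycosylases OGG1, MUTYH, NEIL1, NEIL2, NEIL3, NTHL1 and UNG, the endonuclease APEX1, and the partners XRCC1 and PARP1. All 10 were found among the 35993 genes of the table, each under 1 gene ID, and all 10 were among the 14708 genes that passed the filter on low counts and were tested. They were measured by RNA-Seq in CPEK cells, a canine progenitor epidermal keratinocyte line labelled as wild type, in 3 libraries treated with cold atmospheric microwave plasma for 30 s (dCAMP) and 3 libraries treated with the gas alone (gas control). In both groups the medium was replaced after 15 min and total RNA was collected 24 h later. All libraries came from 1 cell line, and the labels do not say whether the 3 libraries of a group came from separate cultures, so p-values measure only the spread between these libraries. The comparison of dCAMP with gas asks how the repair genes stood 1 day after a single exposure.

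Base excision repair removes single damaged bases from DNA. A glycosylase cuts the damaged base from its sugar, APEX1 nicks the backbone at the abasic site that is left, and PARP1 and XRCC1 mark the break and gather the polymerase and ligase that close it. In skin the pathway is known for clearing bases oxidized by reactive oxygen species, and cold plasma is a source of such species.

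Between 43084921 and 54082634 reads per library were counted on listed genes. All 12 keratinocyte markers of a chosen list were detected, with KRT5 at 21828 CPM or more and KRT14 at 14651.4 CPM or more in every library (CPM is the read count relative to the library's total after TMM normalization). The markers of other cell types were low. The summed level of the 8 fibroblast markers was 6.6 to 7.02 CPM in the gas libraries against 6.51 to 7.1 after dCAMP, with PDGFRB, DCN and LUM at 0 in all libraries. That of the 6 melanocyte markers was 7.12 to 9.12 and 8.86 to 11.4 CPM with TYR and DCT at 0, that of the 7 leukocyte markers 5.34 to 7.88 and 6.51 to 8.68 CPM with PTPRC and CD3E at 0, and that of the 5 endothelial markers 15.7 to 18.4 and 18.8 to 24.7 CPM with PECAM1 at 0. The highest marker of each of these lists was COL3A1 (3.58 to 4.45 CPM over the 6 libraries), MITF (4.99 to 8.94), ITGAM (2.85 to 4.6) and VWF (11.5 to 18.6). The gas libraries differed more among themselves than the dCAMP libraries. On the first principal component, which held 71.2% of the variance, gas 1 lay at −94.1, gas 2 at −23 and gas 3 at 21.7, while the dCAMP libraries lay between 28.6 and 33.6. The results are therefore also given without gas 1, the library farthest from the others, and without gas 3, the gas library nearest to the dCAMP libraries.

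Of the 10 genes, 9 had a lower mean in dCAMP-treated cells than in the gas control and 1, NEIL3, had a higher mean. Their log2 fold changes ran from −0.56 for NTHL1 to 0.78 for NEIL3, with a median of −0.36, whereas the median of all genes tested was 0.03 and 47.6% of those genes had a negative value. Over all genes tested, the 25th percentile of the log2 fold change was −0.22 and the 75th was 0.39, and 7 of the 10 genes lay under the former and 1 above the latter. None of the 10 reached a 2-fold change. The median of the 10 was −0.29 without gas 1 and −0.50 without gas 3. In RNA from whole cultures, fewer cells that express a gene and less of its RNA per cell cannot be told apart.

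The quasi-likelihood test of edgeR, with Benjamini-Hochberg adjustment over all genes tested, called 0 of the 10 genes at an adjusted p under 0.05, and 0% of all genes tested were called by that threshold. At an unadjusted p under 0.05 the test passed 5 genes lower in dCAMP (APEX1, PARP1, XRCC1, MUTYH and NTHL1), against a background of 13.9% of all genes tested, and 1 gene higher (NEIL3), against 6.81%. By the rule in the study's methods, which asks for 2-fold and an unadjusted p under 0.05, 0 of the 10 and 1.09% of all genes were called by edgeR. With DESeq2 on the genes with a count in every library, the same thresholds called 0 of the 10 and 327 of 15304 genes. DESeq2 called 1 of the 10, APEX1, at an adjusted p under 0.05, beside 1.48% of all genes with any count and 1.05% of those with a count in every library. limma's voom with sample quality weights called 9, all but UNG, in a fit that called 60.8% of all genes tested. Without gas 3, edgeR called 6 of the 10 (APEX1, PARP1, XRCC1, MUTYH, NTHL1 and NEIL1), all lower in dCAMP, in a fit where 33.1% of all genes were called. Without gas 1 it called 0, with 6 at an unadjusted p under 0.05, which 20.6% of all genes passed in that fit.

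In 6 of the 10 genes, every dCAMP library lay below every gas library, which was the case for 20.9% of all genes tested. NEIL3 had every dCAMP library above every gas library, as did 19% of all genes. The groups overlapped for UNG, NEIL1 and NEIL2.

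**Figure D1:**
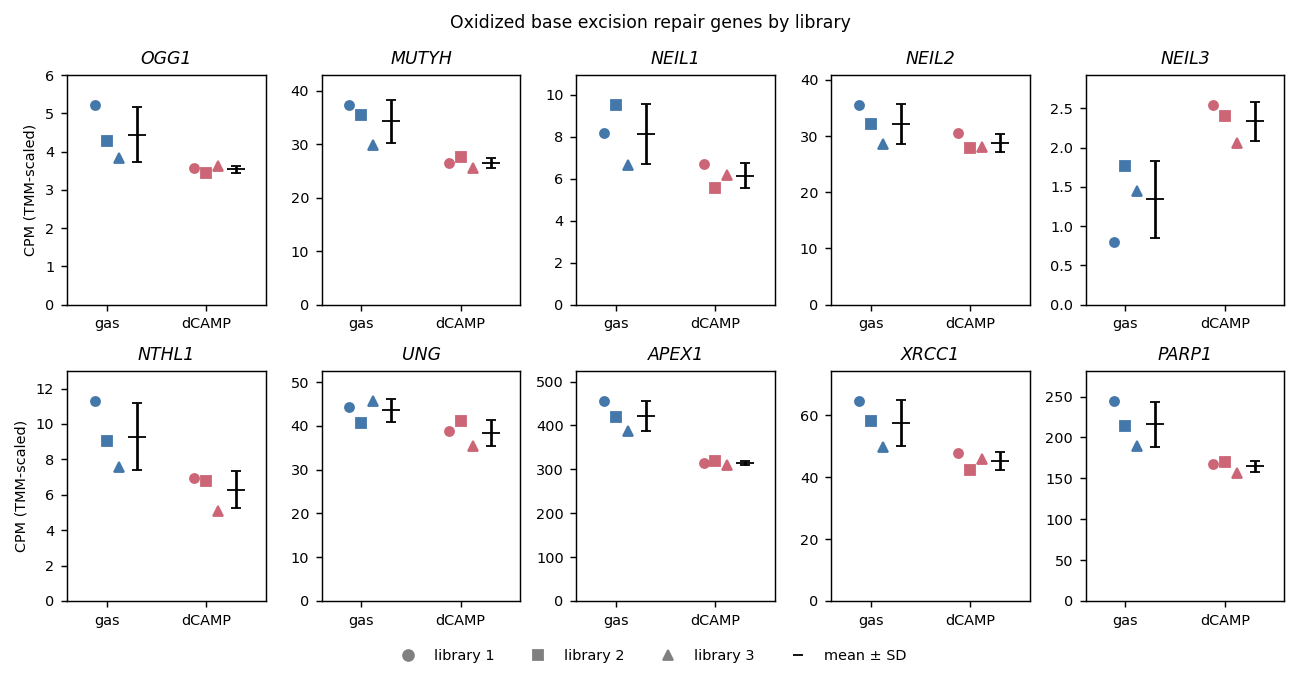
Normalized expression of the 10 genes in each library, in CPM on an axis from 0, with gas libraries in blue and dCAMP libraries in red, the symbol giving the library number and the bar the mean ± SD of 3 libraries. The dCAMP points lie below all gas points for OGG1, MUTYH, NTHL1, APEX1, XRCC1 and PARP1, and above them for NEIL3.

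The genes that act after base removal were the most abundant, and all 3 had lower values in every dCAMP library than in any gas library. APEX1 (gene ID 482558, chromosome 15, 17786808 to 17789422 of CanFam3.1), which cuts the DNA backbone beside the abasic site and also acts as a redox regulator of transcription factors, had 455.9, 418.7 and 387.7 CPM in gas 1, gas 2 and gas 3 and 315.5, 318.2 and 309.5 CPM in the dCAMP libraries. The lowest gas library thus stood above the highest dCAMP library, and the dCAMP mean was 74.7% of the gas mean. The log2 fold change was −0.42 (standard error 0.08, 95% confidence interval −0.62 to −0.22, adjusted p = 0.221). It was −0.38 without gas 1 and −0.52 without gas 3, and the adjusted p in the fits without 1 library ran from 0.0203 (without gas 3) to 0.502. In DESeq2 the adjusted p of APEX1 was 0.0205 over all genes with a count and 0.0472 over genes with a count in every library.

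PARP1 (gene ID 490385, chromosome 7, 38503072 to 38542556), the poly(ADP-ribose) polymerase that binds nicked DNA, was measured at 244.7, 213.8 and 189.9 CPM in the gas control and at 167.1, 170.2 and 156.9 CPM after dCAMP. Its mean went from 216.1 ± 27.5 CPM (SD, n = 3) to 164.7 ± 6.97 (SD, n = 3), and the groups did not overlap. The log2 fold change was −0.39 (standard error 0.11, adjusted p = 0.221). It was −0.31 without gas 1 and −0.52 without gas 3. PARP1 has the longest transcript of the 10, 3521 bases. After a correction for gene length in each library its log2 fold change was −0.53 (edgeR adjusted p = 0.225). This was the most negative value of PARP1 in the alternative settings.

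XRCC1 (gene ID 476447, chromosome 1, 111548719 to 111571816), the scaffold that holds the ligase and polymerase at the break, stood at 64.6, 58.0 and 49.7 CPM in the gas control and at 47.8, 42.2 and 45.7 CPM after dCAMP. The gap between the lowest gas library, gas 3, and the highest dCAMP library, dCAMP 1, was narrow. The fold change, −0.34 on the log2 scale with a standard error of 0.13 and an adjusted p of 0.227, became −0.27 without gas 1 and −0.49 without gas 3.

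Among the glycosylases, OGG1 and MUTYH act on the same lesion, 8-oxoguanine. OGG1 removes the oxidized guanine itself and MUTYH removes the adenine that replication can place opposite it. OGG1 (gene ID 484666, chromosome 20, 8486150 to 8491448) was expressed at a low level, with 203 to 242 counts in the gas libraries against 147 to 165 after dCAMP. In CPM these were 5.23, 4.27 and 3.83 in the gas control and 3.56, 3.43 and 3.61 after dCAMP. The groups did not overlap, but gas 3 stood only a little above the highest dCAMP library, and the log2 fold change was −0.33 (standard error 0.15, 95% confidence interval −0.69 to 0.04, adjusted p = 0.259). It was −0.21 without gas 1, the library with the highest OGG1 level, and −0.47 without gas 3.

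MUTYH (gene ID 100856592, chromosome 15, 15018345 to 15026539) was measured at 37.4, 35.5 and 29.8 CPM in the gas libraries and at 26.4, 27.5 and 25.6 CPM in the dCAMP libraries. All dCAMP libraries were lower, at a mean of 77.4% of the gas control. The log2 fold change was −0.37 (standard error 0.12, adjusted p = 0.221). It was −0.32 without gas 1 and −0.51 without gas 3. The locus of MUTYH overlaps that of HPDL by 7267 bases. HPDL had 4.0 to 6.65 CPM in the gas libraries against 2.77 to 3.06 after dCAMP, and how reads on overlapping genes were assigned is not given in the sources used here.

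NTHL1, NEIL1 and NEIL2 remove oxidized pyrimidines. NTHL1 (gene ID 610981, chromosome 6, 38899144 to 38904637) had the largest negative log2 fold change of the 10 genes, −0.56 (standard error 0.20, 95% confidence interval −1.05 to −0.08, adjusted p = 0.226). Its level was 11.3, 9.02 and 7.54 CPM in the gas libraries against 6.97, 6.79 and 5.11 CPM after dCAMP, so that the groups did not overlap. Both groups were spread, with a coefficient of variation of 20.6% in the gas control and 16.3% after dCAMP, and the log2 fold change ran from −0.41 without gas 1 to −0.74 without gas 3.

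NEIL1 (gene ID 611615, chromosome 30, 38213429 to 38218132) was measured at 8.19, 9.53 and 6.64 CPM in the gas control and at 6.71, 5.53 and 6.17 CPM after dCAMP. Here gas 2 was the highest library and gas 3 lay within the range of the dCAMP libraries. The log2 fold change was −0.40 (standard error 0.17, adjusted p = 0.243). It was −0.42 without gas 1, −0.30 without gas 2 and −0.57 without gas 3. NEIL2 (gene ID 486078, chromosome 25, 26102652 to 26117418), which prefers damage in single-stranded and bubble DNA, had 28.6 to 35.6 CPM in the gas libraries against 27.8 to 30.6 CPM after dCAMP. The difference was within the spread of the gas libraries. The log2 fold change was −0.16 with a 95% confidence interval of −0.44 to 0.13. It was −0.10 without gas 1 and −0.28 without gas 3.

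UNG (gene ID 486315, chromosome 26, 17900354 to 17911126) removes uracil, which enters DNA by deamination of cytosine or by misincorporation, and not an oxidized base in the strict sense. Its level was 44.3, 40.7 and 45.7 CPM in the gas libraries against 38.9, 41.1 and 35.3 CPM after dCAMP, with gas 2 below dCAMP 2. The log2 fold change was −0.18 (standard error 0.10, 95% confidence interval −0.43 to 0.07, adjusted p = 0.310). It was −0.19 without gas 1 and −0.19 without gas 3. UNG was the gene that voom with sample quality weights did not call.

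NEIL3 differed in direction from the other 9 genes. It encodes a glycosylase that acts on single-stranded DNA and on crosslinks between strands, and it is known to be expressed mainly in dividing cells. NEIL3 (gene ID 475639, chromosome 16, 52383585 to 52472398) was covered by 37, 93 and 77 counts in gas 1, gas 2 and gas 3 and by 118, 103 and 93 in the dCAMP libraries. In CPM these were 0.799, 1.77 and 1.45 against 2.55, 2.40 and 2.06, so all dCAMP libraries were higher, and gas 1 was the lowest of the 6. The mean went from 1.34 ± 0.493 CPM (SD, n = 3) to 2.34 ± 0.251 (SD, n = 3). The log2 fold change was 0.78 (standard error 0.29, 95% confidence interval 0.08 to 1.48, adjusted p = 0.230). It was 0.51 without gas 1, 1.0 without gas 2 and 0.79 without gas 3. It was 0.42 with voom and sample quality weights. On the log2 of FPKM plus 1 it was 0.39, a scale that understates the change of low genes. The counts of NEIL3 were the fewest of the 10 genes.

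**Figure D2:**
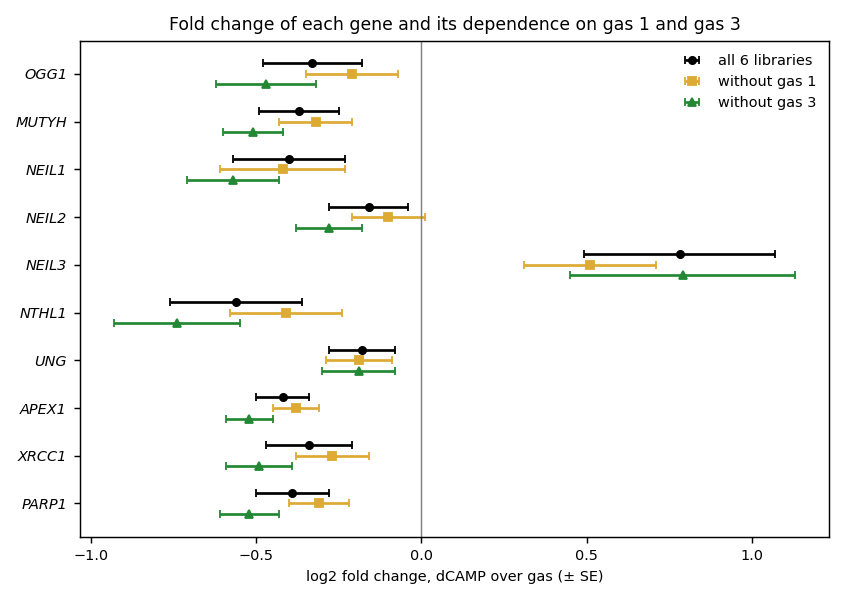
Log2 fold change of each gene, dCAMP over gas, with its standard error, in the fit of all 6 libraries (black circles), without gas 1 (yellow squares) and without gas 3 (green triangles). NEIL3 lies to the right of 0 in all 3 fits and the other 9 genes to the left, with NTHL1 between −0.74 and −0.41 and NEIL3 between 0.51 and 0.79.

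Markers of S phase and mitosis were compared beside NEIL3, since it is a gene of dividing cells. Of the 15 markers, 6 had a higher and 9 a lower mean in dCAMP-treated cells, with a median log2 fold change of −0.07. At an unadjusted p under 0.05, 4 were lower (MCM2, MCM3, MCM5 and MCM7, subunits of the replicative helicase) and 1, the cyclin CCNE2, was higher. Of all genes tested, 13.9% were lower and 6.81% higher at that threshold. MKI67, a general marker of cycling cells, had 50.1 to 66.9 CPM in the gas libraries against 51.8 to 56.5 after dCAMP. TOP2A, which untangles chromosomes before mitosis, had 91.0, 236.5 and 322.2 CPM in gas 1, gas 2 and gas 3 and 287.2 to 331.4 in the dCAMP libraries. Gas 1 was the lowest library for TOP2A, MCM6, CCNA2, CCNB1, CDK1, RRM2 and CCNE2, as it was for NEIL3. It was the highest library for MCM2, MCM3, MCM5, MCM7 and E2F1, and neither for MKI67, MCM4 and TYMS. The summed level of the 15 markers was 2244.1 to 2891.3 CPM in the gas libraries against 2386.8 to 2662.9 after dCAMP. The part of cell division in the NEIL3 values was not tested.

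The gas library 1 stood at one end of the range for most of the 10 genes. It was the highest of all 6 libraries in 7 genes and the lowest in NEIL3. Set against the mean of the dCAMP libraries, the median log2 ratio of the 10 genes was 0.51 in gas 1, 0.37 in gas 2 and 0.15 in gas 3, whereas the same median over all genes tested was −0.01, −0.02 and 0. APEX1 stood at 0.54, 0.41 and 0.30 in gas libraries 1, 2 and 3. NEIL2 stood at 0.31, 0.16 and −0.01. Of the 3 gas libraries, gas 3 was the lowest in 8 of the 10 genes, all but UNG and NEIL3. The sizes of the differences between the groups therefore moved with the gas library. The direction of the mean was the same for each of the 10 genes in all 18 alternative fits. These fits reuse the same 6 libraries, so they are not independent checks of the direction. Where the groups do not overlap, leaving out 1 library cannot by itself reverse it.

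**Figure D3:**
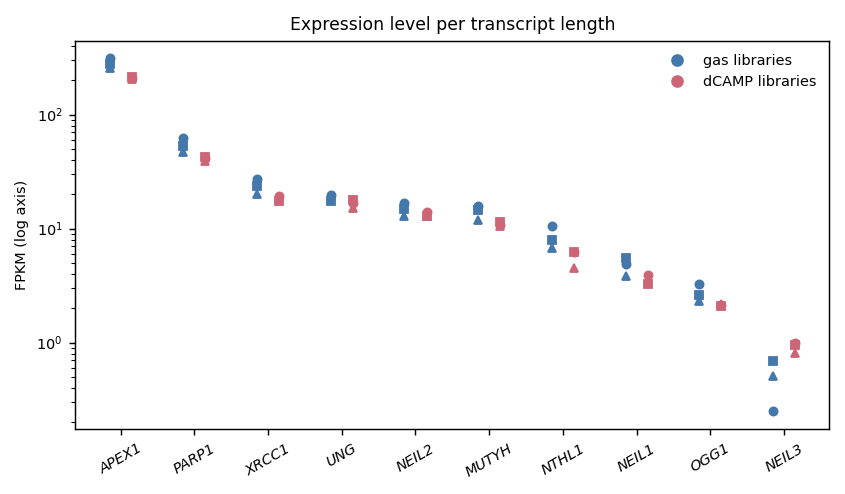
Expression per transcript length of the 10 genes in each library, in FPKM on a log axis, ordered by the mean of all 6 libraries, with gas libraries in blue and dCAMP libraries in red. Levels span from 311.8 FPKM for APEX1 in gas 1 to 0.25 FPKM for NEIL3 in the same library.

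Levels were compared between genes on the FPKM scale, which accounts for transcript length. APEX1 had 282 ± 28.3 FPKM in the gas control and 209.9 ± 3.41 after dCAMP (SD, n = 3 each), higher than 98.2% of the genes tested. PARP1 followed at 54.2 ± 7.93 and 41.1 ± 1.77 FPKM (SD, n = 3 each), and XRCC1 at 23.7 ± 3.51 and 18.6 ± 1.07. Of the glycosylases among the oxidized base excision repair genes, UNG was the most abundant, at 18.9 ± 1.18 and 16.6 ± 1.28 FPKM. The other glycosylases of this set spread over a wide range below UNG. NEIL2 stood at 14.9 ± 1.91 and 13.3 ± 0.637 FPKM and MUTYH at 14.1 ± 1.87 and 10.9 ± 0.455. Lower were NTHL1 (8.44 ± 1.95 and 5.66 ± 0.983), NEIL1 (4.74 ± 0.867 and 3.57 ± 0.315) and OGG1 (2.72 ± 0.484 and 2.14 ± 0.0545). NEIL3 was the least abundant at 0.483 ± 0.219 and 0.924 ± 0.097 FPKM. OGG1 and NEIL3 were higher than 32.6% and 19.9% of the genes tested. The order was the same in both groups. Neighbours in it did not overlap between libraries, except NEIL2 and MUTYH in the gas control and XRCC1 and UNG after dCAMP.

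Of the 10 genes, APEX1, PARP1, XRCC1, UNG and NEIL2 are each listed with 1 transcript, and the other 5 with 3 to 20. Transcript counts are estimates that divide shared reads, and they were described without a test. For OGG1, the 1457-base transcript held 94.6% to 98.3% of the gene's counts in every library. For NEIL1, a 1519-base mRNA held 52.8 ± 6.92% in the gas control and 53.3 ± 7.21% after dCAMP (SD, n = 3 each), and a 1479-base transcript typed as misc_RNA held 26.1 ± 3% and 26.9 ± 7.3%. For NTHL1, the 1014-base transcript held 67.6 ± 4.6% and 68.4 ± 15.4%. These shares differed between the groups by less than their spread. MUTYH counts were divided over 14 transcripts, and the share of the 2243-base one was 44.4%, 20.7% and 18.8% in gas 1, gas 2 and gas 3 and 26.8% to 29.2% in the dCAMP libraries.

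NEIL3 is listed with 20 transcripts, of which 15 were at 0 in every library and none had counts in all 6. A 2766-base transcript typed as misc_RNA had 18, 7 and 34 counts in gas 1, gas 2 and gas 3 and was listed at 0 in the 3 dCAMP libraries. The 2197-base mRNA had 84 counts in gas 2, was listed at 0 in gas 1 and gas 3, and had 85, 53 and 93 counts in the dCAMP libraries. Summed over its mRNA transcripts, a sum chosen after seeing the values, NEIL3 had 19, 86 and 43 counts in the gas libraries against 118, 103 and 93 after dCAMP. Whether cells used other transcripts or reads were divided differently was not tested.

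**Figure D4:**
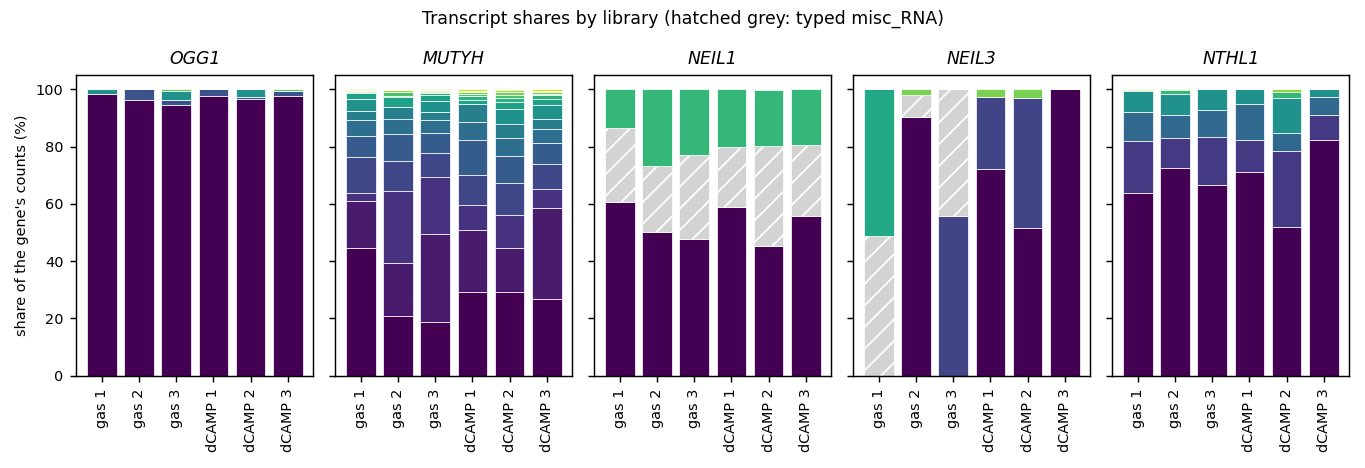
Share of the gene's counts, in percent, that each transcript held in each library, for the 5 genes with more than 1 listed transcript. Each colour within a panel is 1 transcript and hatched grey is a transcript typed as misc_RNA. OGG1 rests on 1 transcript in all libraries, while 1 mRNA holds the largest share of NEIL3 in gas 2 and the dCAMP libraries but none in gas 1 and gas 3.

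The loci of 3 of the 10 genes overlap another gene of the table. Beside MUTYH and HPDL, OGG1 shares 65 bases with CAMK1, which had 0.54 to 0.73 CPM, and NEIL1 shares 47 bases with MAN2C1, which had 30.2 to 40.4 CPM, and 68 bases with MIR631, listed at 0. The other 7 loci overlap no listed gene.

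The other genes of the repair pathway were taken from 5 lists with 40 genes, of which 37 were found by symbol and tested. POLD2, ADPRS and HPF1 were not analysed here. Of the 37 genes, 13 had a higher and 24 a lower mean in dCAMP-treated cells, with a median log2 fold change of −0.10. By the adjusted p, 0 were called by edgeR. At an unadjusted p under 0.05, 9 were lower and 0 higher, against 13.9% and 6.81% of all genes tested. Without gas 3, 12 genes were called lower and 1 higher at an adjusted p under 0.05, in the fit that called 33.1% of all genes.

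The further glycosylases stood on both sides. MPG, which removes alkylated bases, and SMUG1, which removes uracil and oxidized uracil, had log2 fold changes of −0.44 and −0.36, and their groups did not overlap. MPG had 30.9 to 39.4 CPM in the gas libraries against 25 to 28.1 after dCAMP. TDG and MBD4, which act on thymine or uracil opposite guanine, had log2 fold changes of 0.52 and 0.47. TDG had 37.5, 48.8 and 75.8 CPM in gas 1, gas 2 and gas 3 and 73.7 to 80.1 CPM in the dCAMP libraries, so gas 3 lay among the latter. Without gas 1, TDG was at 0.30, MBD4 at 0.20, MPG at −0.38 and SMUG1 at −0.28. In that order they were at 0.80, 0.70, −0.58 and −0.48 without gas 3.

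Among the genes for end processing and short-patch repair, POLL, a gap-filling polymerase, had a log2 fold change of −0.35. The highest were POLB, the main gap-filling polymerase of the pathway, at 0.37, and HMGB1 at 0.26. POLB had 9.64 CPM in gas 1, 18.8 and 21.3 in the other gas libraries against 20.7 to 22.3 after dCAMP. Without gas 1 the log2 fold change was 0.08 for POLB, 0.01 for HMGB1 and −0.27 for POLL. In that order it was 0.54, 0.50 and −0.52 without gas 3.

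Among the 15 tested genes of long-patch repair, which replaces several bases with the replication machinery, 10 were lower and 5 higher. At an unadjusted p under 0.05, 5 were lower, against 13.9% of all genes tested. RFC2, a subunit of the clamp loader, was at −0.44 and POLD1, the catalytic subunit of polymerase delta, at −0.38. POLE2 was at 0.41, and at 0.10 without gas 1, and PCNA, the sliding clamp, at 0.42. PCNA had 80.6 CPM in gas 1 against 180.2 and 231.0 in the other gas libraries against 205.3 to 234.6 after dCAMP, and without gas 1 its log2 fold change was 0.08.

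Of the partners in poly(ADP-ribose) metabolism, PARG, which removes the polymer, was at 0.40 with 19.4, 27.6 and 32.9 CPM in the gas libraries against 34.1 to 36.7 after dCAMP. PARG was at 0.20 without gas 1 and at 0.53 without gas 3. PARP3 was at −0.10, CHD1L at −0.04 and PARP2 at −0.03. Of the 5 enzymes that clean the nucleotide pool, 1 was lower at an unadjusted p under 0.05, against 13.9% of all genes tested. It was NUDT1, which breaks down oxidized dGTP before it can be built into DNA. NUDT1 stood at 61.1, 51.1 and 46.9 CPM in the gas libraries against 37.3, 40.6 and 40.0 after dCAMP, which edgeR fitted at −0.43 on the log2 scale (standard error 0.13, adjusted p = 0.221), and the groups did not overlap. The log2 fold change of NUDT1 was −0.34 without gas 1 and −0.56 without gas 3. ITPA was at −0.30 and DUT at 0.07.

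**Figure D5:**
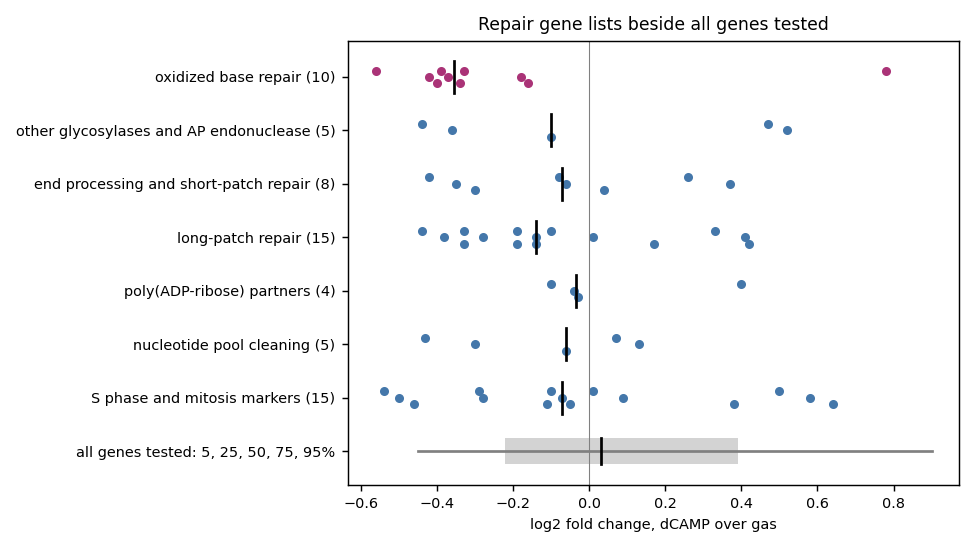
Log2 fold change, dCAMP over gas, of each tested gene in the repair lists and among the S phase and mitosis markers, with the number of genes in brackets and the list median as a black line. The lowest row gives all genes tested, with a grey box from the 25th to the 75th percentile and a line from the 5th to the 95th. The oxidized base repair genes have a median of −0.36, and the other lists have medians between −0.14 and −0.03.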

How the data were processed

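RNA-Seq libraries (TruSeq Stranded mRNA) were analysed from 3 gas and 3 dCAMP samples. Per the labels and the study's methods, the authors used FastQC 0.11.7, Trimmomatic 0.38, HISAT2 2.1.0 with CanFam3.1 and StringTie 2.1.3b. The deposited read counts are not normalized. The deposited FPKM values carry the authors' scaling by transcript length and sequencing depth. The deposited TPM values were not used. The annotation release is not given in the sources used here, and coordinates were read from the deposited transcript table.

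Counts were tested with R 4.3.3 and edgeR 4.0.16: filterByExpr, TMM factors, the quasi-likelihood test and Benjamini-Hochberg adjustment, with a prior count of 2. DESeq2 1.42.0 and limma 3.58.1 were used for alternatives. Standard errors were the log2 fold change divided by the square root of F. The steps were tested on simulated counts with 3-fold changes and the same spread in both groups. Smaller changes and the unequal spread of the groups seen here were not simulated. All 10 genes are described, and from the other repair lists the 2 highest and 2 lowest log2 fold changes with a mean FPKM of at least 1, and any called gene. Some of the genes this rule names are not reported here. The genes and lists were chosen with earlier results of these data known. Same-numbered libraries had deviations from their group means correlated at 0.13, 0.024 and 0.048, so the numbers were not taken to pair the samples. Replicates differed beyond sampling noise (chi-square per degree of freedom of 6.5 to 317.14). Intervals cover the spread between libraries, and a count of 0 allows up to 3 counts, for counting error only.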

Additional observations from a re-analysis of the deposited data

How the results depend on the processing

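In 12 alternative settings and 6 fits that each left out 1 library, all 10 genes kept the sign of their log2 fold change. All of these fits reuse the same libraries and are not independent checks. The cause of the changes below was not tested. At an adjusted p under 0.05, 0 of the 10 genes were called, and 6 at an unadjusted p under 0.05. The former number was 1 with both DESeq2 settings and 9 with voom and sample quality weights, and 0 to 6 without 1 library, the 6 coming without gas 3. The latter was 9 with voom, where 64.9% of all genes passed. It was 4 to 7 in the other alternative settings, where 15.9% to 23.7% of all genes passed. Without 1 library it was 2 (without dCAMP 3) to 8 (without gas 3), and 3 without gas 2 or without dCAMP 1. In the fits without dCAMP 3 and without gas 3, 6.86% and 49.2% of all genes passed. Without gas 2 and without dCAMP 1 these shares were 8.25% and 8.23%. The median log2 fold change of the 10 genes ran from −0.50 to −0.29 without 1 library. It ran from −0.45 (upper-quartile factors) to −0.32 otherwise.

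Over all genes tested, 0 had an adjusted p under 0.05, 301 and 161 with DESeq2 on genes with any count and with a count in every library, 8944 with voom and 3 on the log2 of FPKM plus 0.1, and 0 to 4953 without 1 library (4953 without gas 3). At an unadjusted p under 0.05 there were 3040 genes (1001 higher, 2039 lower), 9541 with voom (5074 higher, 4467 lower), 1744 higher and 1738 lower on the log2 of FPKM plus 1, 1575 higher and 1739 lower on the log2 of FPKM plus 0.1, and 1024 (without dCAMP 3) to 7374 (without gas 3) without 1 library. A 2-fold change with it was found for 161 genes, 279 without the filter, 369 and 327 with DESeq2, 1010 with voom, 373 on the log2 of FPKM plus 0.1, and 135 to 1523 without 1 library. With the replicate block it was 435, and 475 with the length correction and the block. The replicate block left 5 of the 10 genes with an unadjusted p under 0.05, which 18.9% of all genes passed in that fit. It left 0 of the 10 with an adjusted p under 0.05. Not every library correlated best with its own number. With the block, genes with an unadjusted p under 0.05 were 1406 higher and 1369 lower. NEIL3 rests on 37 to 118 counts per library, and its log2 fold change ran from 0.51 without gas 1 to 1.0 without gas 2.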

Other observations

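Among the 14 MUTYH transcripts, 3 short ones held a larger share of the gene's counts in every dCAMP library than in every gas library. The groups overlapped for the other MUTYH transcripts, among them the short ones of 1810 and 1736 bases. How many transcripts of all genes did not overlap was not counted. The 3 were chosen after their values were seen and were not tested. The 1767-base transcript had 8 to 11 counts per gas library and 13 to 15 per dCAMP library, a share of 0.586 ± 0.14% (SD, n = 3) against 1.18 ± 0.108% (SD, n = 3). The 1797-base transcript held 0.292 ± 0.0692% against 0.759 ± 0.0805%, and the 1800-base transcript 0.197 ± 0.0786% against 0.505 ± 0.0751%, on 2 to 10 counts per library.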
